A study of Mus musculus with 12 samples.

Results

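The 12 libraries of mouse lateral septum RNA in this series fell into 5 with a high and 7 with a low level of Cwc22, chosen by a single measured value per library, the Cwc22 level in the deposited table. A library was called high at 10 FPKM or more and low under 10 FPKM, where FPKM counts fragments relative to the length of the gene and the size of the library. The high and low libraries are a division of the samples made from that measurement and not groups of the study. The question was which other transcripts followed the Cwc22 level, near the gene and elsewhere, once the injection was taken into account. The study's own groups were wild-type mice given saline (6 libraries) or CFA (6 libraries), which in this field stands for complete Freund's adjuvant, an inflammatory emulsion, all labelled day 3. According to its title the study is about TIA1 and NF-kB in microglia during inflammatory pain. The labels used here give no strain or age, so it is not known from them whether the mice shared 1 breeding colony. They also do not say that each library came from a separate animal, so p-values speak only for the spread among these 12 samples, some of which may be technical.

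CWC22 is a protein of the spliceosome, the machine that cuts introns out of transcripts. It guides the helicase eIF4A3 onto the transcript, where eIF4A3 becomes the core of the exon junction complex, a mark that later steps such as nonsense-mediated decay read. In mouse genetics Cwc22 is also known as the protein-coding gene of R2d, a segment of chromosome 2 that is present in different numbers of copies in different strains, with extra copies at another place on the chromosome. DNA was not measured here, so the number of Cwc22 copies in these animals is not known.

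Cwc22 lies at chr2:77881159-77946375 on the minus strand of GRCm38. The high libraries were saline 1 at 31.8 FPKM, saline 3 at 21.4, saline 5 at 19.9, CFA 1 at 12.1 and CFA 5 at 19.3. The 7 low libraries, saline 2, 4 and 6 and CFA 2, 3, 4 and 6, lay between 2.01 and 2.67 FPKM with a median of 2.27. No library lay between 2.67 FPKM in CFA 6, the nearest below the limit, and 12.1 in CFA 1, the nearest above it. The means were 20.9 ± 7.08 FPKM (SD, n = 5) and 2.26 ± 0.215 FPKM (SD, n = 7), a ratio of 9.27. These values chose the libraries, so they are a description with no test. They rest on 3286 to 7880 recovered reads per high library and 478 to 679 per low library.

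**Figure D1:**
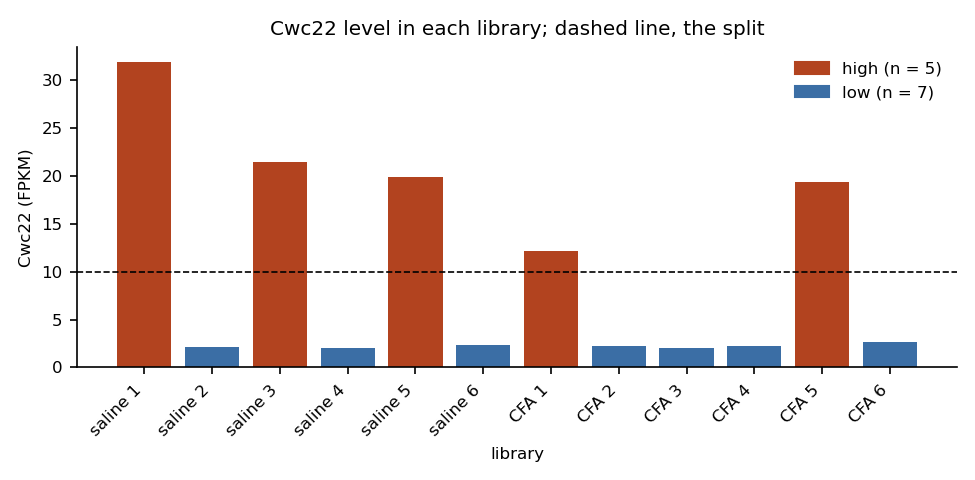
Cwc22 level in FPKM (bars, vertical axis) in each of the 12 libraries (horizontal axis), with the 10 FPKM limit as a dashed line. The 5 high libraries stand between 12.1 and 31.8 FPKM and the 7 low ones between 2.01 and 2.67, with both kinds in the saline and in the CFA group.

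Both kinds occurred in each treatment group, 3 high and 3 low libraries in saline and 2 high and 4 low in CFA, so the split and the injection can be told apart. Depth was alike, 35.1 to 39.2 M recovered reads per high library and 33.6 to 38.4 M per low one. Xist, the female-specific transcript, was present in 3 of 5 high and 4 of 7 low libraries, and the Y-linked Ddx3y in the others. The choroid plexus transcript Ttr was at 2259 FPKM in saline 3, 701 in saline 5 and 66.6 in saline 1, all high libraries, and at 4.50 to 44.5 FPKM in the other 9. Markers of lateral septum neurons, the labelled tissue, were detected for 12 of 12 genes listed and summed to 209 to 273 FPKM in high and 199 to 277 FPKM in low libraries. Markers of striatal projection neurons summed to 277 to 703 and 278 to 524 FPKM. Those of cortical and hippocampal excitatory neurons summed to 470.5 to 692 and 470.5 to 663 FPKM. Detection of the septal markers therefore does not tell how purely the labelled tissue was taken.

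Close copies of Cwc22 carried almost no reads in these files. In the annotation, 7 genes (Gm13691 and Gm13693 to Gm13698) lie between 83955693 and 83993045 on chromosome 2, 6.07 Mb after the start of Cwc22, and each matches its longest transcript at 96.9% over 2514 bases. Gm13694 reached 0.0442 FPKM in a high library and was listed at 0 in the low ones, and the other 6 were listed at 0 in all 12 libraries. The stretch of 90 coding bases below, where Cwc22 (chr2:77929370-77929459, minus strand) and its copy Gm13694 (chr2:83979178-83979267, plus strand) differ most, shows how alike they are. The pair differs at 79 of 2514 aligned positions, and how reads were divided between such copies is not given in the sources used here. Sequences here run 5′ to 3′ along the transcript, are those of GENCODE M21 on GRCm38, and carry in capitals the bases that differ within a pair.
Cwc22: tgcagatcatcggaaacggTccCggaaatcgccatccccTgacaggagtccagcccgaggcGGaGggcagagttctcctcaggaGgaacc
Gm13694: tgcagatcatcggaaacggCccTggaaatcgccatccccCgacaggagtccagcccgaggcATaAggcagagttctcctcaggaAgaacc
These lines differ at 7 bases. The annotated transcript Gm13727 (77879753 to 77881467 on chromosome 2, same strand as Cwc22) overlaps the end of Cwc22 and followed the split in full. It was at 0.854 to 1.60 FPKM in the 5 high libraries and listed at 0 in all 7 low ones. Since it overlaps the gene that chose the libraries, its values are part of the same description.

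Outside the locus 3 genes passed the threshold between high and low libraries, all on chromosome 11: Xaf1 and Gm6685 were higher and the long noncoding RNA 6330403K07Rik was lower. Xaf1 encodes XIAP-associated factor 1, an interferon-inducible protein that promotes cell death. The test was limma on log2(FPKM + 1) with the injection as a covariate and Benjamini-Hochberg adjustment, with Cwc22 itself left out. It called 3 of 15432 genes, 0.0194% of those tested, at an adjusted p under 0.05. Before adjustment 930 genes had p under 0.05 (457 higher, 473 lower), and the median difference over all genes was -0.000135.

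Xaf1 (chr11:72301629-72313733, plus strand) was at 1.77 FPKM in saline 1, 2.07 in saline 3, 1.69 in saline 5, 2.70 in CFA 1 and 2.38 in CFA 5. In the 7 low libraries it ranged from 0.561 to 0.940 FPKM with a median of 0.690. Every high library thus stood above every low one, in saline and in CFA alike. The difference was 0.86 on the log2(FPKM + 1) scale (SE 0.10, adjusted p = 0.0146 by limma). It was 0.64 within saline and 1.11 within CFA, and the test of the difference between them by limma had an adjusted p of 0.917. The injection itself left Xaf1 at a difference of 0.04 (adjusted p = 0.944 by limma, given the split).

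Gm6685 (chr11:28339104-28339867, minus strand) was at 2.42, 3.10 and 3.22 FPKM in saline 1, 3 and 5, and at 3.56 and 2.33 in CFA 1 and CFA 5. The low libraries ranged from 0.539 to 1.41 FPKM, so the high and low libraries did not overlap. The difference was 0.98 (SE 0.13, adjusted p = 0.0348 by limma). Gm6685 is 99.3% identical over 751 bases to Cyb5d1, a gene for a cytochrome b5 domain protein at chr11:69391925-69395631, so the reads of either are uncertain (below). The call was lost with a pseudocount of 0.1 (adjusted p = 0.0575), with no filter on low values (0.116), by limma-voom (0.0815) and with Xist as a covariate (0.0597), while the difference stayed positive in each. With 1 library left out it was lost in 4 of 12 fits (adjusted p up to 0.144 by limma).

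The RNA 6330403K07Rik (chr11:71031941-71033513, minus strand) was at 211 FPKM in saline 1, 179 in saline 3, 207 in saline 5, 169 in CFA 1 and 162 in CFA 5. Its low libraries ranged from 207 to 254 FPKM with a median of 243. High libraries were below low ones within each treatment group, but saline 1 overlapped the lowest low library, CFA 3, across groups. The difference was -0.38 (SE 0.05, adjusted p = 0.0490 by limma). This call, just under the threshold, was lost without the trend in limma's variance model (adjusted p = 0.101), without the treatment covariate (0.325), with no filter on low values (0.185) and with Xist as a covariate (0.0597), at differences of -0.35 to -0.39. With 1 library left out it was lost in 8 of 12 fits. These included the fits without the low libraries saline 2, saline 4, saline 6, CFA 4 and CFA 6 (adjusted p = 0.0954, 0.126, 0.0905, 0.0612 and 0.0794 by limma).

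For each of these 3 genes the exact permutation test, which moved the high and low labels within each treatment group over all 300 assignments, two-sided, gave p = 0.00333, the smallest it can give. They were picked by their small p in the first place, so this is not independent support. Over all genes tested, the high and low libraries did not overlap for 47 (0.305%), 24 of them above and 23 below. Leaving out single libraries moved the number of called genes: none passed by limma without saline 3, CFA 1 or CFA 5, each a high library (729 to 907 genes at an unadjusted p under 0.05). In these fits Xaf1 still differed by 0.86, 0.78 and 0.82 (adjusted p = 0.0722, 0.0753 and 0.0730 by limma). There were 9 calls when saline 5 was left out, 5 each when it was saline 1 or CFA 2, and 6 when it was CFA 3. Those without saline 5 include Gm3650, Pla2g4e, Pcna-ps2 and Gm4353, with means of 0.136 to 0.391 FPKM in low libraries. These reached the 0.5 FPKM needed for the test only through the high libraries. The counts without CFA 2 and without CFA 3 include Gm13727 and the pseudogene Gm13767, which reached the mean of 0.5 FPKM needed for the test only through the high libraries once a low one was left out. Without CFA 2 the other calls were the same 3 genes as with all libraries. Without saline 3 and saline 5, the libraries with most Ttr, 7 genes passed, of which Xaf1 was the 1 shared with the full set (0.93, adjusted p = 0.0213 by limma). The 7 also include Gm3650, Pla2g4e, Pcna-ps2 and Gm4353, under the same limit. Gm6685 (0.91, adjusted p = 0.199) and 6330403K07Rik (-0.37, adjusted p = 0.144) did not pass there.

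**Figure D2:**
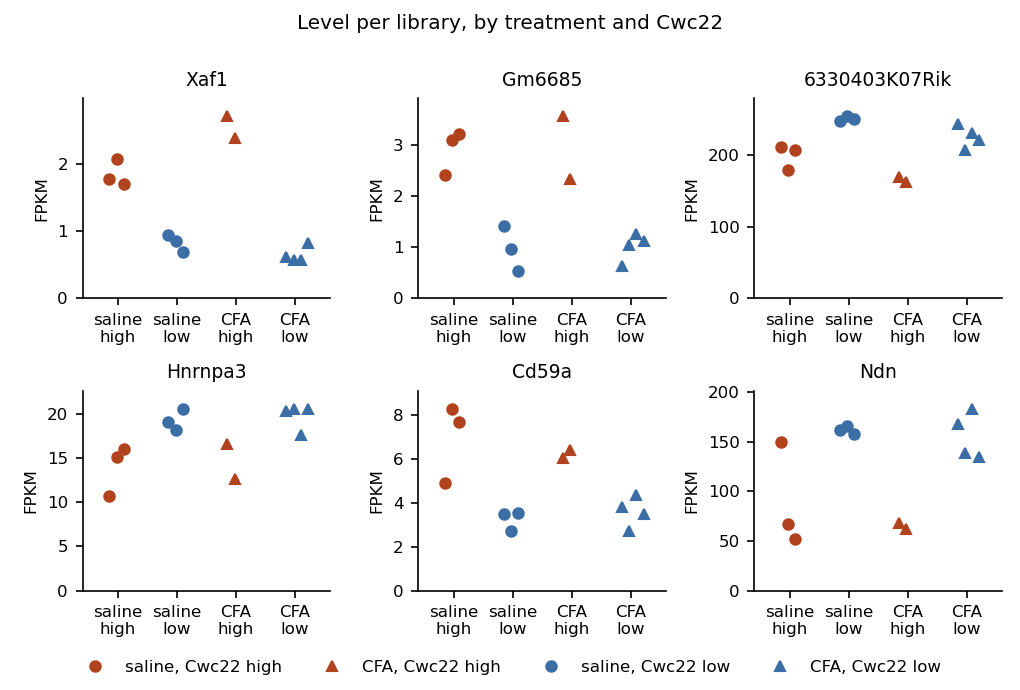
FPKM (vertical axes, from 0) per library for 6 genes, by treatment and Cwc22 level, 1 point per library. Xaf1, Gm6685 and Cd59a are higher in the high libraries of both treatments and 6330403K07Rik and Hnrnpa3 lower, while for Ndn saline 1 stands at 149 FPKM beside the low libraries.

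Xaf1 and 6330403K07Rik lie near each other on chromosome 11. In the stretch from 69 to 73 Mb of chromosome 11, chosen after the values were seen, 6 of 96 tested genes (6.25%) had an unadjusted p under 0.01, against 11 of 1103 (0.997%) on the rest of that chromosome and 1.37% of all genes. Beside those 2 they were Rnf227 (0.19, adjusted p = 0.492), Tnfsf12 (0.29, adjusted p = 0.420), which encodes the cytokine TWEAK, Ybx2 (0.31, adjusted p = 0.514) and Gm44349 (-0.55, adjusted p = 0.612). These 4 did not pass the threshold of limma. Cyb5d1, the near-identical gene of the called Gm6685, also starts in this stretch, at 69391925, while Gm6685 itself lies outside it. Cyb5d1 differed by -0.07 (adjusted p = 0.926 by limma).

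Around Cwc22 itself no gene passed, but small p-values were more frequent than elsewhere. Within 10 Mb of its start, 0 of 107 tested genes were called by limma at an adjusted p under 0.05, and 0 by limma-voom on recovered reads. In the same window 24 genes had an unadjusted p under 0.05. At an unadjusted p under 0.01 there were 13 of 107 (12.2%), 4 higher and 9 lower in high libraries, where the share was 1.37% over all genes tested. The share was 2.66% on the rest of chromosome 2 (30 of 1127 genes) and 1.18% on all other chromosomes (168 of 14198). The lowest adjusted p was 0.284 within the window and 0.105 on the chromosome, so none of the genes named from it is a call.

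The 8 tested genes closest to Cwc22 differed little between high and low libraries, and none passed the threshold of limma. On the side of smaller coordinates these were Zfp385b (0.10), Sestd1 (0.05), Ccdc141 (0.11) and Plekha3 (0.06), with unadjusted p from 0.0444 to 0.362. On the other side they were Ube2e3 (-0.04), Neurod1 (-0.09), Ssfa2 (0.12) and Pde1a (0.00), all log2 differences of high minus low. The widest 95% interval was that of Neurod1, -0.67 to 0.50, and the narrowest that of Ube2e3, -0.15 to 0.07. The intervals are on the log2(FPKM + 1) scale, which understates changes of low genes such as Neurod1, at a mean of 0.679 FPKM in high and 0.782 FPKM in low libraries.

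The 13 genes of the window with p under 0.01, chosen after their values were seen, had the same sign in saline and in CFA, and for 5 of them the high and low libraries did not overlap. Choosing by p on these libraries favours both, so the counts are a description; genes without overlap made up 4.67% of the window and 0.305% of all genes tested. Hnrnpa3, an RNA-binding protein of nuclear transcripts, 2.22 Mb before Cwc22, was at 10.7, 15.2, 16.0, 16.7 and 12.6 FPKM in saline 1, 3 and 5 and CFA 1 and 5. Its low libraries ranged from 17.6 to 20.6 FPKM, above every high one (-0.44, SE 0.10, adjusted p = 0.316). Nup35, a subunit of the nuclear pore 2.74 Mb after Cwc22, was at 2.26, 3.18, 3.62, 3.70 and 2.21 FPKM in the same order and at 3.88 to 5.45 FPKM in the low libraries (-0.45, SE 0.11, adjusted p = 0.447). Nup35 has a near-identical copy, Gm4353, so its reads are uncertain. The reads of the pair together overlapped between high and low libraries (below).

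Dnajc10, a disulfide reductase of the endoplasmic reticulum, was the one non-overlapping gene of the window with higher levels, 18.8 to 21.01 FPKM in high against 15.3 to 18.6 FPKM in low libraries (0.22, adjusted p = 0.401). Cybrd1, a membrane ferric reductase, was at 0.744 to 0.981 FPKM in high and 1.14 to 1.52 FPKM in low libraries (-0.30, adjusted p = 0.307). Pdk1, a kinase that inhibits pyruvate dehydrogenase, was at 4.30 to 5.26 and 5.38 to 6.96 FPKM (-0.30, adjusted p = 0.284). Overlapping values were found for Serping1, the C1 inhibitor of the complement system (0.39), for Dlx1, a transcription factor of forebrain inhibitory neurons (-0.36), and for Metap1d (-0.45), Gm13713 (-0.39), Fam171b (-0.23), Tmx2 (-0.14), Ccdc173 (0.36) and Ssrp1 (0.14).

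Small p-values on chromosome 2 were not limited to this window. In bins of 10 Mb the share with p under 0.01 was 9.09% just before and 17.1% just after Cwc22, then 3.51%, 14.6%, 8.11%, 8.00% and 1.22% in the bins that follow. From 10 Mb before to 60 Mb after Cwc22, limits set after the values were seen, it was 35 of 449 genes (7.80%), and on the rest of the chromosome 8 of 785 (1.02%). In this long stretch 16 genes were higher and 19 lower in high libraries.

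**Figure D3:**
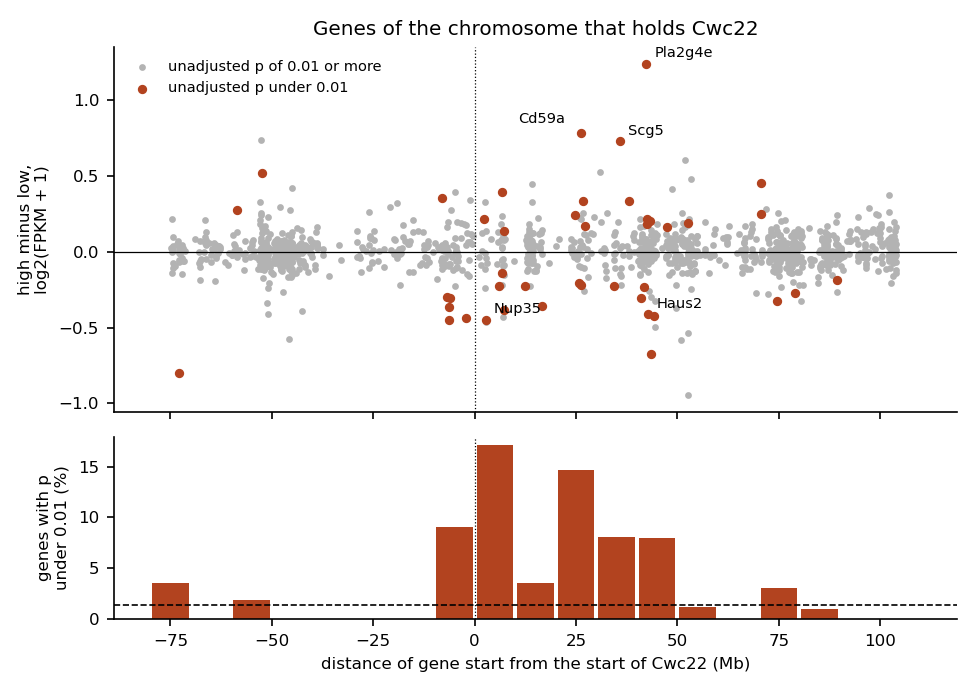
Top, high minus low on the log2(FPKM + 1) scale (vertical axis) for every tested gene of chromosome 2 against the distance of its start from that of Cwc22 in Mb (horizontal axis); bottom, the percentage of genes with an unadjusted p under 0.01 per 10 Mb bin, with the 1.37% of all genes as a dashed line. The bins from 10 Mb before to 50 Mb after Cwc22 lie above that line, from 3.51% to 17.1%, and genes in them differ in both directions. The bins at -80 to -70 Mb (3.57%, 1 of 28 genes), -60 to -50 Mb (1.85%) and 70 to 80 Mb (3.05%) also lie above it.

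Among the genes further along chromosome 2, Cd59a, an inhibitor of the complement membrane attack complex 26.2 Mb after Cwc22, was at 4.90, 8.30, 7.72, 6.05 and 6.42 FPKM in saline 1, 3 and 5 and CFA 1 and 5. All low libraries were below these, at 2.72 to 4.36 FPKM (0.78, SE 0.12, adjusted p = 0.105 by limma). Haus2, a subunit of the augmin complex of the mitotic spindle 42.7 Mb after Cwc22, was lower without overlap, at 4.80 to 6.61 against 6.77 to 8.15 FPKM (-0.41, SE 0.07, adjusted p = 0.124 by limma). Neither passed the threshold with all libraries. Without saline 1, Cd59a did (0.86, adjusted p = 0.0272 by limma), and without saline 5, Haus2 did (-0.46, adjusted p = 0.0269 by limma). Both subsets are given with these values in view, and neither gene passed with any other single library left out.

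In 4 genes that lie further along this chromosome or are copies of genes there, saline 5 differed from the other high libraries. They were chosen after their values were seen. Scg5, the 7B2 chaperone of a prohormone convertase, 35.9 Mb after Cwc22, was at 164, 148, 155 and 205 FPKM in saline 1, saline 3, CFA 1 and CFA 5. In saline 5 it was at 92.3 FPKM, within the 82.4 to 95.9 FPKM of the low libraries. Pla2g4e, a cytosolic phospholipase 42.3 Mb after Cwc22, was at 2.25 to 4.89 FPKM in those 4 libraries, at 0.242 in saline 5 and at 0.252 to 0.486 in low libraries, so it was tested only through the high ones. Over all 12 libraries neither passed (Scg5 0.73, adjusted p = 0.284; Pla2g4e 1.24, adjusted p = 0.302, both by limma). Without saline 5 both did, Scg5 at 0.87 and Pla2g4e at 1.52 (adjusted p = 0.00102 for each by limma), a subset chosen with these values in view. Gm3650 and Pcna-ps2, the other two, are copies described next.

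Some transcripts on other chromosomes that were higher in high libraries are near-identical copies of genes on chromosome 2. Of the 22 genes off chromosome 2 with an unadjusted p under 0.001 by limma, 7 (31.8%) had a copy. A copy here means a transcript at least 95% identical over at least 50% of their length. For 4 (18.2%) a copy lay on chromosome 2. Over all 14198 tested genes off chromosome 2 these shares were 7.43% and 1.21%. The 4 were Gm4353 on chromosome 7 (copy of Nup35), Eif3j2, Gm3650, and Pcna-ps2 on chromosome 19 (copy of Pcna, the sliding clamp of DNA replication). Eif3j2 is a copy of Eif3j1, a translation initiation factor subunit, and Gm3650 is a copy of Spg11, the spatacsin gene. Eif3j2 and Gm3650 lie close together on the same chromosome, and Eif3j1 and Spg11 overlap on chromosome 2. Eif3j2 and Gm3650 may therefore not be separate cases in this count, and whether they belong to a single copied segment was not tested. Gm4353, Gm3650 and Pcna-ps2 had means of 0.256, 0.136 and 0.336 FPKM in low libraries, under the 0.5 FPKM needed for the test, so they were tested only through the high libraries and their number is no support for a pattern. None of the 4 passed the threshold over all libraries in the test used here, while Gm4353 passed over the same libraries with a pseudocount of 0.1 (adjusted p = 0.0354) or 0.5 (0.0363), as TPM (0.0255) and with Cwc22 as a continuous covariate (0.0321).

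The sequences below show why reads of such pairs are uncertain. Each is the stretch of 90 bases in the coding part of both members where they differ most. Gm4353 (chr7:116083910-116084213, minus strand) and Nup35 (chr2:80646415-80652894, plus strand) differ there at 1 base and at 6 of 1547 aligned positions. Pcna-ps2 (chr19:9283912-9284001, plus strand) and Pcna (chr2:132249857-132251292, minus strand) differ at 2 bases there and at 6 of 781 aligned positions. Gm6685 (chr11:28339482-28339571, minus strand), one of the called genes, and Cyb5d1 (chr11:69394751-69394840, minus strand) differ at 3 bases there and at 5 of 751 aligned positions. Spans longer than 90 bases include introns, which are not shown.
Gm4353: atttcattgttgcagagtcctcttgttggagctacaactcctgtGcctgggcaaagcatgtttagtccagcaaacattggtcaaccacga
Nup35: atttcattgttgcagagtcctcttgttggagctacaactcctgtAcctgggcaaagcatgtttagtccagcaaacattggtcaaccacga
Pcna-ps2: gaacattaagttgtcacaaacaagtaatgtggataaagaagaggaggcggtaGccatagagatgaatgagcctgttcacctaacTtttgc
Pcna: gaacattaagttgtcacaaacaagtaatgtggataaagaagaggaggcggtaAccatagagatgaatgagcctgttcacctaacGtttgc
Gm6685: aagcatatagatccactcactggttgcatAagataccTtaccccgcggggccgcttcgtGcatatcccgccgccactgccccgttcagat
Cyb5d1: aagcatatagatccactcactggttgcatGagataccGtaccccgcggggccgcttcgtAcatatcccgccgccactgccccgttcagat

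Gm4353 was at 3.27, 1.43, 1.08, 1.37 and 3.92 FPKM in saline 1, 3 and 5 and CFA 1 and 5, and at 0.0673 to 0.478 FPKM in the low libraries (1.31, SE 0.20, adjusted p = 0.0830 by limma). Fewer reads were placed on its gene of origin, Nup35, in high libraries, as given above. Reads of the pair together numbered 461, 465, 485, 579 and 532 in the same 5 high libraries. In the low libraries they numbered 467 to 717, so the total of the pair overlapped between high and low. Of the reads placed on either, the copy took 40.1% in saline 1, 17.2% in saline 3, 12.2% in saline 5, 14.7% in CFA 1 and 45.1% in CFA 5. In the 7 low libraries it took 0.687% to 3.91%, so the high and low libraries did not overlap in this share. The lowest high library, saline 5, had a 95% Wilson interval of 9.55% to 15.4%, and the highest low library, CFA 3, one of 2.72% to 5.59%, which cover counting error only.

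Eif3j2 took 15.3% to 51.3% of the reads of its pair in high libraries and 1.89% to 20.2% in low ones, where CFA 3 stood highest. Gm3650 took 0.209% of the reads of its pair in saline 5, where the low libraries reached at most 0.804%, and 9.50% to 23.3% in the other 4 high ones. Pcna-ps2 likewise took 0.632% in saline 5, within the 0.423% to 2.17% of the low libraries, and 10.7% to 25.7% in the other 4. Gm13767, a pseudogene copy of Ptprj on chromosome 2 whose mean was under the 0.5 FPKM needed for the test, took 0.761% to 1.99% in high and at most 0.0364% in low libraries. For Gm6685 with Cyb5d1 the shares were 8.33% to 11.3% against 1.99% to 4.29%.

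**Figure D4:**
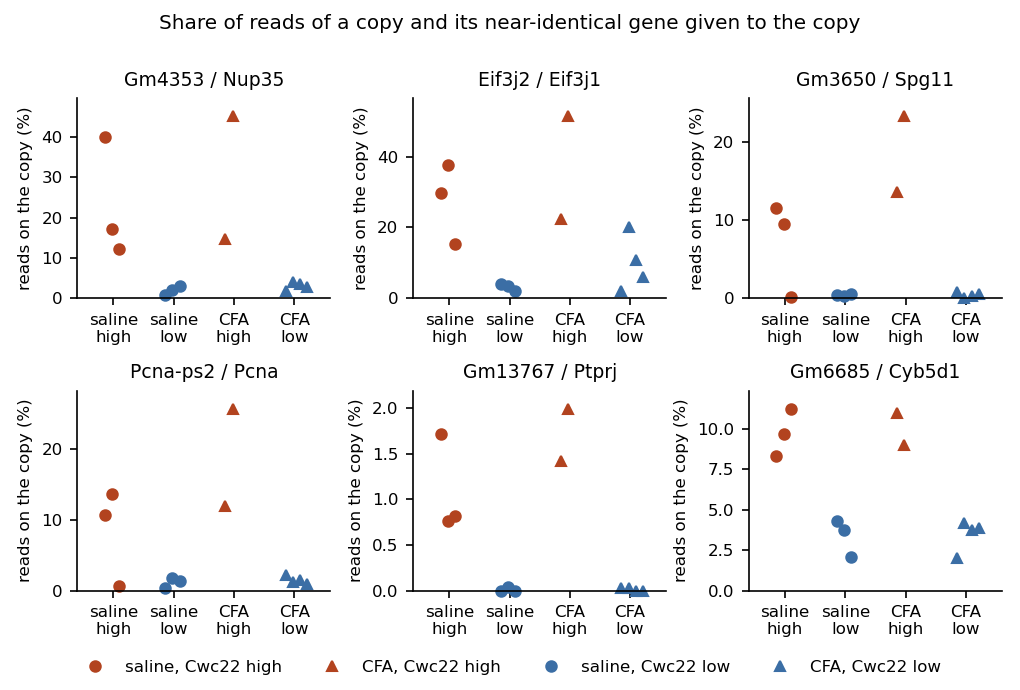
Percentage of the reads of a copy and its near-identical gene that were placed on the copy (vertical axes, from 0), 1 point per library, by treatment and Cwc22 level, for 6 pairs. High libraries stand above low ones except Eif3j2, where saline 5 at 15.3% lies below CFA 3 at 20.2%, and Gm3650 and Pcna-ps2, where saline 5 lies within the low libraries.

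Elsewhere in the genome, Ndn, which encodes the imprinted protein necdin on chromosome 7, was at 67.2 FPKM in saline 3, 51.9 in saline 5, 68.1 in CFA 1 and 61.5 in CFA 5. In saline 1 it was at 149 FPKM, within the 134 to 183 FPKM of the low libraries. The difference over all libraries was -1.11 (SE 0.20, adjusted p = 0.276 by limma), and without saline 1 it was -1.34 (adjusted p = 0.000280 by limma). That subset was chosen with the values of Ndn in view. With any other single library left out, the adjusted p for Ndn by limma was 0.23 to 0.51. Lower values that did not pass were also found for the microRNA gene Mir23b (-0.87, adjusted p = 0.284), Tmem229b (-0.27, adjusted p = 0.302) and Ttyh3, a chloride channel gene (-0.20, adjusted p = 0.307).

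As a description with no test, the genes most like Cwc22 across the 12 libraries after removal of the treatment means were Cybrd1 (Pearson r = -0.95), Tmx2 (-0.94), Gm4353 (0.93), Zfp106 (0.91), Haus2 (-0.91) and Xaf1 (0.89). Of these, 4 are on chromosome 2 (Cybrd1, Tmx2, Zfp106 and Haus2), which holds 1234 of the 15432 tested genes. Gm4353 is a copy of a gene there, but with a mean of 0.256 FPKM in low libraries it was tested only through the high ones. The ranking used the values that made the split, so the count is no support for a pattern. The 12 points share their library and their split into 2 clusters.

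The partners of CWC22 showed no called difference. Of 11 genes of the exon junction complex, 0 were called, 8 differences were positive and 3 negative, with a median of 0.03. Rbm8a, the Y14 subunit, had the smallest p (0.18, SE 0.06, adjusted p = 0.715), and Eif4a3 itself, added for its direct contact with CWC22, was at -0.03 (adjusted p = 0.954). Of 14 nonsense-mediated decay genes, 0 were called, 8 were positive and 6 negative (median 0.02). Of 41 spliceosome genes around the catalytic step, 0 were called, 27 were positive and 14 negative (median 0.03), with Crnkl1 at 0.13, Bud13 at -0.17 and Slu7 at 0.11. Of 11 genes of the eIF4G family and its partners, which share domains with CWC22 or bind such domains, 0 were called, 3 were positive and 8 negative (median -0.01). Over all genes 49.9% of the differences were positive and 6.03% had an unadjusted p under 0.05; in these 4 lists 1, 0, 4 and 0 genes had one.

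Markers of other cell types were read the same way, and in bulk samples fewer cells of a type and less RNA per cell cannot be told apart. No marker passed the threshold. All 15 markers of striatal projection neurons were positive (median 0.45, 4 with an unadjusted p under 0.05), and they summed to 277 to 703 FPKM in high and 278 to 524 FPKM in low libraries. All 11 choroid plexus markers were positive (median 0.63, 2 under 0.05), with sums of 62.0 to 2725 and 52.6 to 119 FPKM. All 15 microglia markers (median 0.09, 5 under 0.05; sums of 152 to 192 and 142 to 162 FPKM) and 9 of 10 endothelial markers (median 0.10, 5 under 0.05; 107 to 113 and 96.6 to 107 FPKM) were positive too. These signs are over both treatments and need not hold in each. For the choroid plexus marker Ttr, high minus low was 5.90 in saline and -0.42 in CFA. For the microglia marker Cx3cr1 it was -0.06 in saline and 1.29 in CFA. Of 10 oligodendrocyte markers 9 were negative (median -0.32, 0 under 0.05), with sums of 948 to 3018 and 1594 to 2688 FPKM. The part of these lists in the differences above was not tested.

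The injection and the split were next read together. Given the split, limma called 4 of 15432 genes between CFA and saline (0.0259%), Wdfy1, C4b, Mpeg1 and Ctss, and without it in the model 3, the same without C4b. Xist was present in 5 of 6 CFA and 2 of 6 saline libraries, so the sexes were unevenly spread over the treatment groups. With Xist as a covariate Wdfy1 alone stayed called (-1.23, adjusted p = 0.000862 by limma), while C4b (0.67), Mpeg1 (0.36) and Ctss (0.47) had adjusted p of 0.235, 0.235 and 0.246. Wdfy1, which relays Toll-like receptor signals, differed by -1.32 (SE 0.09, adjusted p = 5.83e-05) with the split and -1.35 without it. It was at 7.0 to 10.7 FPKM in saline and 2.4 to 3.0 FPKM in CFA libraries. Wdfy1 is also on a list used here of genes known to vary between C57BL/6 substrains or colonies. The labels give no strain, and the part of such variation in this difference was not tested. Mpeg1 and Ctss, of macrophages and microglia, differed by 0.38 and 0.49 with the split (adjusted p = 0.0364 for each) and by 0.38 and 0.48 without it. C4b, a complement component with the near-identical copy C4a, differed by 0.77 with the split (SE 0.10, adjusted p = 0.0364) and by 0.71 without it (adjusted p = 0.162). Leaving out 1 library gave 10 genes without saline 3, 8 without saline 1, and 1 or 2 without any of saline 2, 4, 5 or 6 or CFA 1, 2, 3, 5 or 6. Wdfy1 was called each time.

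For 3 genes the difference between high and low libraries itself differed between CFA and saline, by the interaction term of limma (3 of 15432, 0.0194%). The fractalkine receptor gene Cx3cr1 was at 8.20 to 9.99 FPKM in all 6 saline libraries, at 1.68 to 2.14 FPKM in the 4 low CFA libraries, and at 5.48 and 6.32 FPKM in the high libraries CFA 1 and CFA 5. High minus low was -0.06 in saline and 1.29 in CFA, a difference of 1.36 (SE 0.13, adjusted p = 0.00755). The CFA and saline libraries did not overlap for Cx3cr1, and the 2 high CFA libraries lay between the others.

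Ccl17, a chemokine gene, was at 5.58 FPKM in CFA 1 and 4.55 in CFA 5, and at 0.716 to 1.66 FPKM in the other 10 libraries (interaction 1.54, SE 0.18, adjusted p = 0.0284 by limma). Gm15446, a near-identical relative of the zinc finger gene Zfp932 on chromosome 5, was at 0.00666 FPKM in CFA 1 and 0.0404 in CFA 5, against 2.03 to 5.64 FPKM in the others (interaction -2.04, SE 0.26, adjusted p = 0.0302 by limma). These 3 genes single out CFA 1 and CFA 5, the only high libraries of the CFA group, so each rests on 2 libraries. With 1 library left out, an alternative chosen after seeing the data in which a lone high CFA library is assumed to vary like the others, 1 to 4 genes passed. Only 1 gene passed without saline 5, saline 6, CFA 1, CFA 2, CFA 3 or CFA 5. Cx3cr1 passed in all of these fits but the one without CFA 5 (1.27, adjusted p = 0.0518 by limma), where Mir337 was the gene called.

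Gt(ROSA)26Sor, a noncoding RNA of the locus most used for inserted transgenes, was at 48.98 FPKM in saline 1 and at 4.99 and 4.84 in saline 3 and 5, against 3.37 to 4.08 FPKM in the low saline libraries. In CFA it was at 3.49 and 1.98 FPKM in the high libraries and at 0.126 to 0.428 in the low ones. High libraries were above low ones within each treatment group (1.49, SE 0.44, adjusted p = 0.564 by limma), but the 4 low CFA libraries also set the CFA group apart from saline. The strand setting of the read counter is not given in the sources used here, so reads of overlapping or antisense genes such as this one cannot be told apart.

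**Figure D5:**
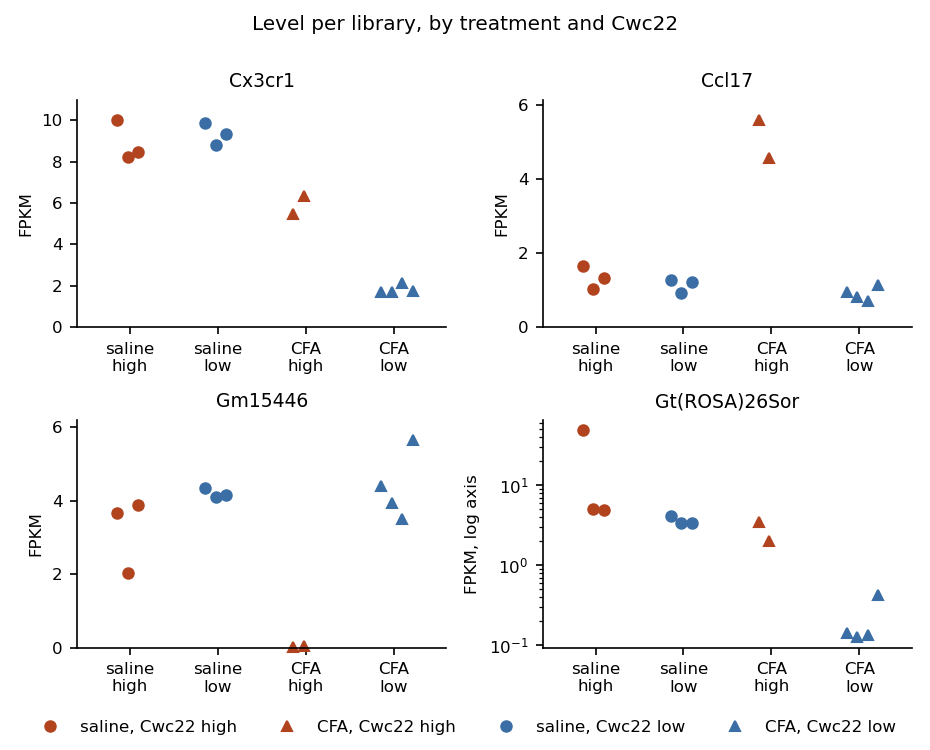
FPKM per library (vertical axes, from 0 except the log axis of Gt(ROSA)26Sor) for 4 genes, by treatment and Cwc22 level. CFA 1 and CFA 5, the high CFA libraries, stand at 5.48 and 6.32 FPKM of Cx3cr1, above the 1.68 to 2.14 of the low CFA libraries, and apart from all others in Ccl17 and Gm15446.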

How the data were processed

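Bulk RNA sequencing of mouse lateral septum was analysed in 12 libraries. The aligner was HISAT2 2.0.5 and the build mm10, per the submitters' processing notes; read counter, strand setting and annotation release: not given in the sources used here. As values the authors deposited FPKM per gene and library, and in the same deposited table a gene length in bases. FPKM multiplied by length took whole steps, so reads were recovered: 100% of values came out whole (tolerance 0.01 read), summing to 33.6 to 39.2 M reads per library. The library sizes behind the steps were 0.990 to 1.03 times these sums. Of 54532 gene IDs, 54495 were in GENCODE M21, 98.3% with its coordinates on GRCm38 (counted from 1). In a separate table, 6 columns of per-sample values matched no sample and were not used.

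Libraries were split on Cwc22 at 10 FPKM. Genes with a mean of at least 0.5 FPKM were fitted on log2(FPKM + 1), which understates changes of low genes, with limma 3.58.1 in R 4.3.3 (eBayes with trend, two-sided, split and treatment as terms, Benjamini-Hochberg adjustment over 15432 genes, threshold 0.05). The interaction came from a further fit. Members, gene lists and the rule for named genes were chosen with earlier results of these data known. The rule named Cwc22, the 4 nearest tested genes on each side, called genes and those with the smallest p (6 per direction), 3 members per pathway list, the 6 genes most correlated with Cwc22, and genes called for CFA; any other gene is marked as picked after its values were known. Copies were found with BLAST 2.17.0 on M21 transcripts, 95% identity over at least 50% of the transcript. The fit was tested on simulated data. No library pair agreed within sampling noise (lowest chi-square per degree of freedom 7.22). Alternatives covered the pseudocount, filter, scaling, variance model, voom on recovered reads, covariates, split, threshold and left-out libraries. Tables were made in Python 3.11.15 with numpy 2.4.6 and pandas 2.3.3, and figures with matplotlib 3.10.9.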

Additional observations from a re-analysis of the deposited data

Results flagged for a closer look

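Among 138 sets of values, each a named gene in the high or in the low libraries, 7 held 1 library far from the rest by Dixon's criterion at 95%, where chance gives about 1 in 20. In the high libraries these were Ndn in saline 1 (149 FPKM), Gt(ROSA)26Sor in saline 1 (48.98 FPKM) and Tmem119, a microglial gene, in CFA 5 (10.5 FPKM). In the low libraries they were Eif4g3 in CFA 6 (22.0 FPKM), and Pdcd4 (24.3 FPKM), Eif3j1 (4.96 FPKM) and Fam171b (51.9 FPKM) in CFA 4. Eif4g3 and Pdcd4 encode factors of translation initiation.

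High minus low differed between CFA and saline, by limma's interaction term with Benjamini-Hochberg adjustment over all genes, for Cx3cr1 (1.36 larger in CFA on the log2 scale), Ccl17 (1.54 larger in CFA) and Gm15446 (-2.04). Each of the 3 rests on CFA 1 and CFA 5.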

How the results depend on the processing

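The high against low comparison called 3 genes with all libraries. It called 0 under a filter of 1 FPKM or more in 6 or more libraries and 0 with a mean of at least 5 FPKM. Xaf1, over 1 FPKM only in the high libraries and at most 2.70 FPKM, was not tested under either filter. Gm6685, at most 3.56 FPKM, was not tested under the second. Under the first, Gm6685 and 6330403K07Rik had adjusted p of 0.0563 and 0.0602 by limma. Under the second, 6330403K07Rik had 0.0691. The comparison called 0 with a split at 20 FPKM, 0 at an adjusted p under 0.01, 1 with Xist as a covariate, 1 with Cwc22 as a continuous covariate (Gm4353) and 7 without saline 3 and saline 5. With 1 library left out it called 0 to 9. The fits with 7 and 9 calls include genes that were tested only through the high libraries. In the settings with 0 calls by limma at 0.05, 462 to 1064 genes had an unadjusted p under 0.05. Within 10 Mb of Cwc22 the count of 0 became 1 with no filter, and 0 to 1 with 1 library left out; that 1 gene was Gm13727, which overlaps Cwc22 and is listed at 0 in all low libraries. A count of 3 did not always mean the same genes: with a pseudocount of 0.1, Gm4353 stood in place of Gm6685. With no filter, and again without saline 4, only Xaf1 was shared, beside Gm13727 and Gm13767. CFA against saline given the split called 4, but 1 with no filter, 7 with a mean of at least 5 FPKM, 1 with Xist as a covariate, 10 with a split at 20 FPKM, 7 without saline 3 and saline 5, 1 at 0.01, 7 at 0.1, and 1 to 10 with 1 library left out. The interaction called 3, but 7 with no filter, 1 with a mean of at least 5 FPKM, 1 by limma-voom, 1 at 0.01 and 1 to 4 with 1 library left out. Beyond the genes that a filter left out, the cause of these shifts was not tested.

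Of 768 values of 27 named genes under alternatives, 663 kept their direction and side of the threshold, 77 lost the threshold, 12 passed only under the alternative, and 16 changed sign. Only called genes could lose the threshold, and most of the 27 were not called, so the 663 do not show that the calls held. With 1 library left out, 6330403K07Rik lost it in 8 of 12 fits, Gm6685 in 4 and Xaf1 in 3. For CFA against saline given the split, Ctss and Mpeg1 lost it in 9 of 12, C4b in 8 and Wdfy1 in 0. The 16 that changed sign were all in genes next to Cwc22 without a called difference. Plekha3 was -0.16 with the replicate block and -0.0022 with a split at 20 FPKM, Ube2e3 0.031 with the replicate block, Neurod1 0.0019 with a continuous covariate and 0.40 with a split at 20 FPKM, and Pde1a -0.0045 as TPM, -0.021 without the treatment covariate and -0.86 with the replicate block. With 1 library left out Neurod1 ranged from -0.25 to 0.095 and Pde1a from -0.14 to 0.074. The labels do not say whether replicate numbers pair the libraries. Same-number correlations of deviations were -0.03 to 0.23. CFA 1, CFA 4, CFA 5 and saline 6 correlated best with their own number in the other group, and the other libraries did not. These values do not settle whether the numbers pair the libraries. Replicates 1 and 5 were high and 2, 4 and 6 low in both treatments, so with a replicate block the split rests on replicate 3 alone (saline 3 high, CFA 3 low). That fit called 0 genes between high and low, with Xaf1 at 1.03 (adjusted p = 0.616 by limma), and its values above rest on the same pair. Depth limits low genes most, such as Gm4353 with 4 to 28 reads in low libraries.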
